A study of Rattus norvegicus with 4 samples.

Results

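The nuclear genes for the subunits of oxidative phosphorylation were followed in the rat oligodendroglial cell line OLN93 with and without Sox10. Members were chosen by symbol alone: names that start with Ndufa, Ndufb, Ndufc, Ndufs, Ndufv, Uqcr or Atp5, names that start with Cox4 to Cox8, and Sdha, Sdhb, Sdhc, Sdhd, Cyc1 and Cycs. The rule found 89 of the 17327 gene symbols in the count files. Of these, 34 belong to complex I, 4 to complex II, 9 to complex III, 1 is cytochrome c, 18 belong to complex IV and 15 to complex V. The remaining 8 are assembly factors or relatives that share the name stem, namely 6 Ndufaf genes, Atp5s and Atp5sl. Ndufa4 and Ndufa4l2 carry complex I names but were grouped with complex IV, where the Ndufa4 protein resides.

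Oxidative phosphorylation is the stage of respiration that turns the oxidation of nutrients into ATP at the inner mitochondrial membrane. Complexes I and II feed electrons from NADH and succinate into ubiquinone, complex III passes them to cytochrome c, and complex IV reduces oxygen. Complexes I, III and IV pump protons, and complex V, the ATP synthase, lets them flow back to drive ATP formation. Most subunits are encoded in the nucleus and imported, whereas a small set of core subunits is made inside the organelle from mitochondrial DNA. Oligodendroglial cells are known to use both respiration and glycolysis, and mature oligodendrocytes export lactate and pyruvate to axons.

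OLN93 is a permanently growing line from rat glial culture that is used as a model of oligodendrocyte precursors (OPCs). The 4 libraries came from 2 control samples, which were Sox10-positive, and from 2 Sox10-deficient clones, A and B, in which Sox10 had been inactivated with CRISPR/Cas9. All were grown in the same medium with serum, and the labels name no further treatment. Each Sox10-deficient library is 1 clone, made with its own guide RNA. A change shared by both clones and a difference between cell clones thus cannot be fully told apart with 2 samples a group. The p-values refer to these samples only, and the spread behind them was estimated partly from other genes.

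Library totals were low, at 60951 to 104017 counts. On the normalized counts-per-million scale (CPM, counts scaled by library total and a normalization factor), 1 count equals between 9.68 and 16.1. The paper reports far more sequencing reads per library, so the totals do not measure how deeply the libraries were sequenced. The reason for this gap was not tested, and depth below means the depth of these counts. These totals are far below the level of the authors' own table: the mean deposited count was 0.384% of the authors' mean for the median of 5353 genes with a mean of 500 or more, and 0.201% for the 65 members among them. Genes that overlap a protein-coding gene on the other strand exceeded 1% of the authors' mean in 26.4% of 1031 cases, against 8.42% of 5509 genes without such an overlap. The strand option of the counting was not stated, so the counts printed here may not be sense expression for some or all genes. This was not tested, and every level given below is a level in these counts.

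Sox10, the targeted transcription factor, had 28 and 64 control counts, none in A and 14 in B. Its level was 535 ± 120 CPM in controls and 79.4 ± 112 CPM in the clones (SD, n = 2 each). The log2 fold change was -2.74 (SE 0.62, adjusted p = 0.0172 in edgeR's quasi-likelihood test). Without clone A the log2 fold change was -1.75 and its adjusted p 0.0695, and clone B was at 29.7% of the control mean. The call was also lost without control 2 (adjusted p = 0.447 in edgeR), with a replicate block (0.125) and in DESeq2 (0.9998), with the direction kept. Among 8 OPC markers, Pdgfra had 23 and 38 counts in controls and 31 and 44 in clones. Cspg4 was higher in the clones without overlap in CPM (16 and 31 against 58 and 36 counts, adjusted p = 0.196 in edgeR). Nkx2-2 was lower without overlap (20 and 52 against 18 and 25, adjusted p = 0.359 in edgeR). Olig1 and Olig2 reached 12 and 7 counts in control 1 and at most 1 elsewhere. Sox8 had 5 and 2 against 2 and 0 counts, and Gpr17 2 and 0 in each group. The list, which includes Sox10, summed to 1815 to 1820 CPM in controls and 1284 to 1349 CPM in clones. Sox10 alone gave 450 and 620 CPM of the control sums and 0 and 159 CPM of those of the clones. The difference between the sums is therefore not read as a fall of the other OPC markers. The myelin genes Mag, Mobp and Ugt8 were at 0 in all 4 libraries and Mbp at no more than 2 counts. Others of that list were present: Cnp fell from 62 and 68 counts in controls to 35 and 20 in clones (log2 fold change -1.36, SE 0.34, adjusted p = 0.0331 in edgeR), while Mog had 12 and 18 against 13 and 11 counts and Myrf 10 and 12 against 8 and 6, both lower in the clones without overlap in CPM but not called. The summed level of the myelin list was 968 to 1349 CPM in controls and 420 to 682 CPM in clones. Schwann cell and neural crest markers summed to 1462 to 1510 CPM in controls and 386 to 578 CPM in clones. Of these, Ngfr fell from 37 and 62 counts to 0 in both clones (adjusted p = 9.75e-06 in edgeR) and Erbb3 from 15 and 13 to 0 (adjusted p = 0.0131), while Pmp22 had 26 and 36 against 23 and 8 counts and Sox2 12 and 23 against 25 and 24. Of 7 astrocyte markers, Aqp4, Aldh1l1, Slc1a2 and Slc1a3 were at 0, the summed level of the list was 232 to 434 CPM in controls and 215 to 370 CPM in clones, Sox9 was higher in the clones (0 and 2 counts against 30 and 18) and S100b lower (26 and 22 against 2 and 1). The neuronal list reached 1 count in 2 libraries, and the microglial genes Cx3cr1, Itgam and Ptprc were at 0 while Csf1r had 4 and 13 counts in controls and 5 and 4 in clones. The part of these shifts in the results below was not tested.

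Promoter sequences are shown first because genes of respiratory chain subunits are known to share short elements near their start sites, among them sites for NRF1 (nuclear respiratory factor 1), for ETS factors such as GABP (also called NRF2), and for YY1. RefSeq windows of the GRCr8 build, from 250 bases before to 50 bases after the start, were available for 75 of the 89 members. The 8 letters GCGCATGC of an NRF1 core, read on both strands, occurred in 12 of these windows (16%), against 5.4% of the windows of all tested genes and 2.61% of all RefSeq windows. The ETS core CCGGAAG occurred in 20 (26.7%), against 16.9% and 9.14%, and at least one of these cores was present in 28 windows. Atp5g2, Uqcrc2 and Uqcrc1 are printed as examples of members that were deep enough to be tested and carry a core. Atp5a1, also tested, carries an ETS core at -60 and is not printed. Each is given in the direction of the gene, with the NRF1 or ETS core in capitals.

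Atp5g2 (GRCr8 chr7:135678225-135678314, minus strand): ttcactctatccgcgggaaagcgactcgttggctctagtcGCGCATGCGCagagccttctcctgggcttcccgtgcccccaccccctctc
Uqcrc1 (GRCr8 chr8:118468144-118468231, plus strand): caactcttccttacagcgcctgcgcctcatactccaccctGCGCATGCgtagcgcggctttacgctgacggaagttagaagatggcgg
Uqcrc2 (GRCr8 chr1:184599083-184599258, plus strand): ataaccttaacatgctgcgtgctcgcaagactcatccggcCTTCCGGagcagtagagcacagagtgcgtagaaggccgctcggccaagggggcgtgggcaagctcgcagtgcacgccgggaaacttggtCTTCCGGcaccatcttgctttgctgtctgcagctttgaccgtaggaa

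In Atp5g2 the NRF1 letters overlapped on the 2 strands, starting at -56 and -54 from the start site. In Uqcrc1 they started at -39, and a YY1 motif (AAGATGGC) started at -1, at the end of the printed stretch. In Uqcrc2 the ETS core was present on the opposite strand at -117 and at -28. The YY1 letters were found in 15 members (20%) and in 6.31% of the windows of tested genes. The SP1 letters GGGCGG were found in 32 members (42.7%), which was below the 67.9% of tested genes and above the 34.5% of all windows. The letters ACAAAG, as bound by SOX proteins, were found in 9 members (12%), against 11.9% of tested genes and 18.4% of all windows, and the E-box CACGTG in 9.33%, against 10.4% and 6.59%. A match describes only the letters, since a window of fixed length on a newer build was searched and no binding was measured.

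**Figure D1:**
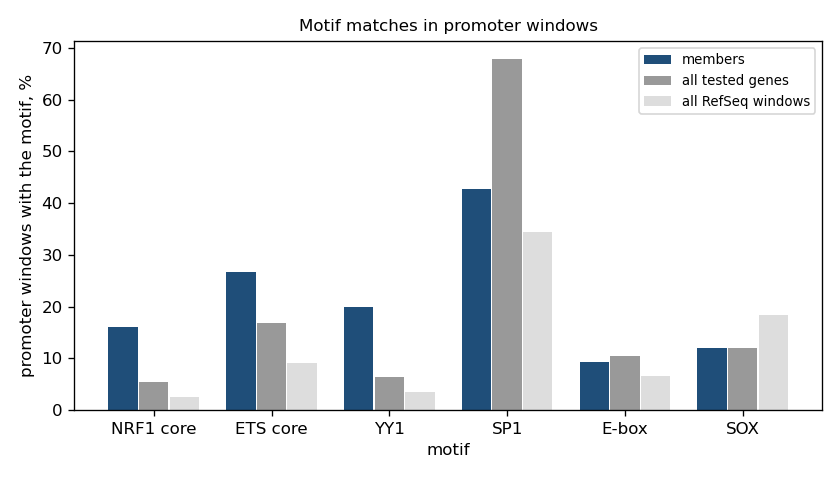
Share of promoter windows in percent (vertical axis) that hold each motif on either strand (horizontal axis), for the 75 members with a window, for 1982 tested genes and for all 27457 RefSeq windows. The bars of the members are higher than both others for the NRF1, ETS and YY1 letters, and lie at 12% beside 11.9% of tested genes for the SOX letters.

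The first question was whether the respiratory chain as a whole stood at another level in the Sox10-deficient clones. Summed over the 89 members, it did not move by more than the replicates differed. The members held 306 of 60951 counts in control 1, or 0.502% (95% Wilson interval 0.449 to 0.561), and 544 counts or 0.523% (0.481 to 0.569) in control 2. In clone A they held 433 counts or 0.499% (0.454 to 0.548), and in clone B 460 counts or 0.516% (0.471 to 0.565). The values of both groups were interleaved, the group means were 0.512 ± 0.0148% and 0.507 ± 0.0123% (SD, n = 2 each), and their ratio was 0.990. These intervals cover counting error only and leave out the spread between libraries. Reads were not tagged with molecular identifiers, so even the counting error may be larger than shown. Without Atp5b, which alone held 177 of the counts, the shares were 0.438% and 0.470% in controls and 0.445% and 0.476% in clones. In bulk RNA a change in the number of cells and a change in RNA per cell cannot be told apart.

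Taken singly, complexes I to V had ratios of clone to control means between 0.887 and 1.07. Complex I held 0.149% and 0.173% of the control counts and 0.159% and 0.187% of those of the clones, a ratio of 1.07. Complex II held 15 and 22 counts in controls and 17 and 23 in clones, a ratio of 0.992. Complex III held 29 and 80 counts in controls and 52 and 45 in clones, so that both clones lay between the controls. Complex IV held 0.0886% and 0.0788% in controls and 0.0783% and 0.0718% in clones, a ratio of 0.897 without overlap, but control 2 and clone A differed by less than their counting intervals (0.0635 to 0.0978 and 0.0618 to 0.0993). Complex V held 0.162% and 0.141% in controls and 0.162% and 0.150% in clones, a ratio of 1.03. With 2 libraries a group, the smallest p that an exact two-sided permutation test can give is 0.333, so none of these sums was tested.

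**Figure D2:**
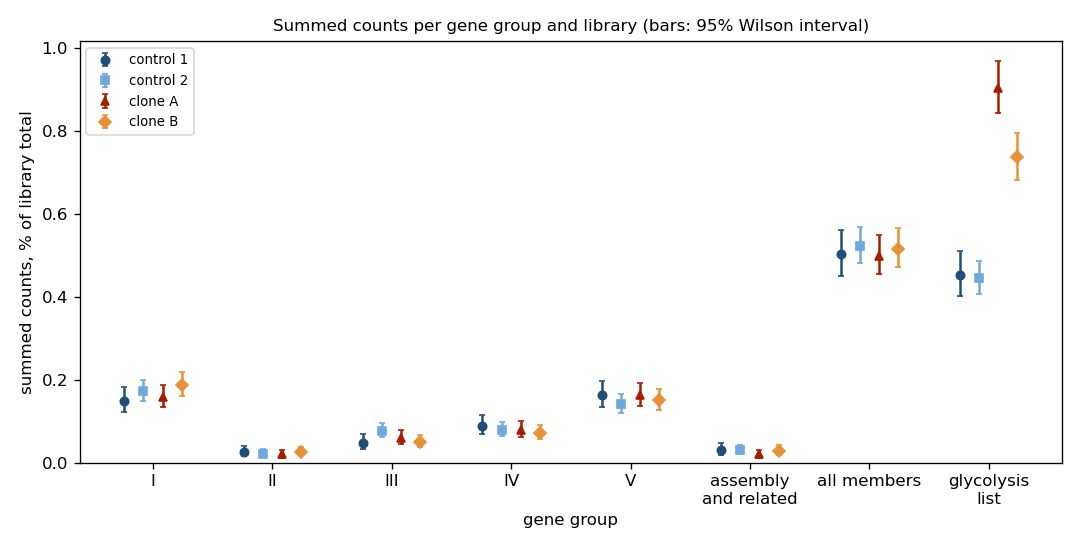
Summed counts of each complex, of all members and of the glycolysis list as a percent of the library total (vertical axis), with 1 point per library and bars for the 95% Wilson interval. All members lie between 0.499% and 0.523% in the 4 libraries, whereas the glycolysis list lies at 0.453% and 0.444% in controls and at 0.903% (A) and 0.736% (B) in clones.

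For single genes, 16 members had enough counts to be tested: 4 of complex I, 3 of complex III, 3 of complex IV, 5 of complex V and the assembly factor Ndufaf7. Another 8 members were at 0 in every library, 25 had at most 3 counts in each, and only 5 had 10 or more in each. No tested member passed the adjusted p of 0.05 in edgeR's quasi-likelihood test in either direction, and none passed at an unadjusted p of 0.05. Over all 2438 tested genes, 2.5% were called lower and 1.19% higher by adjusted p, and 8.2% and 6.52% at the unadjusted threshold. DESeq2 called 0 members by adjusted p and 1, Ndufa7, at an unadjusted p of 0.05. It gave no adjusted p for Ndufa7, so this gene could not be called there. The smallest p of a member was 0.0571, for Ndufaf7, with an adjusted p of 0.363. Groups without overlap were seen for 3 members lower in the clones (18.8%: Ndufaf7, Ndufb9 and Uqcrc2) and for 1 higher (6.25%: Atp5g2). Over all tested genes these shares were 21.5% and 21.6%, so the members did not exceed the background.

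The median log2 fold change of the 16 members was -0.20, with 12 below and 4 above 0, beside -0.0059 over all tested genes. The lower and upper quartiles were -0.59 and -0.05 for the members and -0.43 and 0.40 for all tested genes. This median did not hold its sign when shallower members entered, since it was 0.22 over the 81 members with any count 0.18 over the 81 in DESeq2, and 0.031 over the 22 members tested without control 1. Over the same 16 members it was below 0 in each fit that tested them all, between -0.18 and -0.45. Among single members, Atp5b, Atp5g2, Ndufaf7, Ndufb9 and Uqcrc2 kept their direction in every alternative that could be fitted, and the other 11 did not. Their size still depended on single libraries: with one left out, Atp5g2 was 0.12 to 0.97, Ndufb9 -1.02 to -0.19, Atp5b -0.48 to -0.078, Ndufaf7 -1.47 to -0.67 and Uqcrc2 -0.85 to -0.50.

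The low counts also limit what the tests can show. Standard errors of the log2 fold changes were 0.306 to 0.758, and the 95% intervals were 1.29 to 3.19 log2 units wide. All 16 intervals included 0. Only that of Atp5b lay within a 2-fold change in both directions, while 9 lay below a 2-fold increase and 3 above a 2-fold decrease. For every tested member but Atp5b, a 2-fold change in at least 1 direction thus lay within the interval. Ndufaf7, at a log2 fold change of -1.14, was not called (adjusted p = 0.363 in edgeR). Smaller changes were not detectable for most members either, and the data do not show that they were equal.

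**Figure D3:**
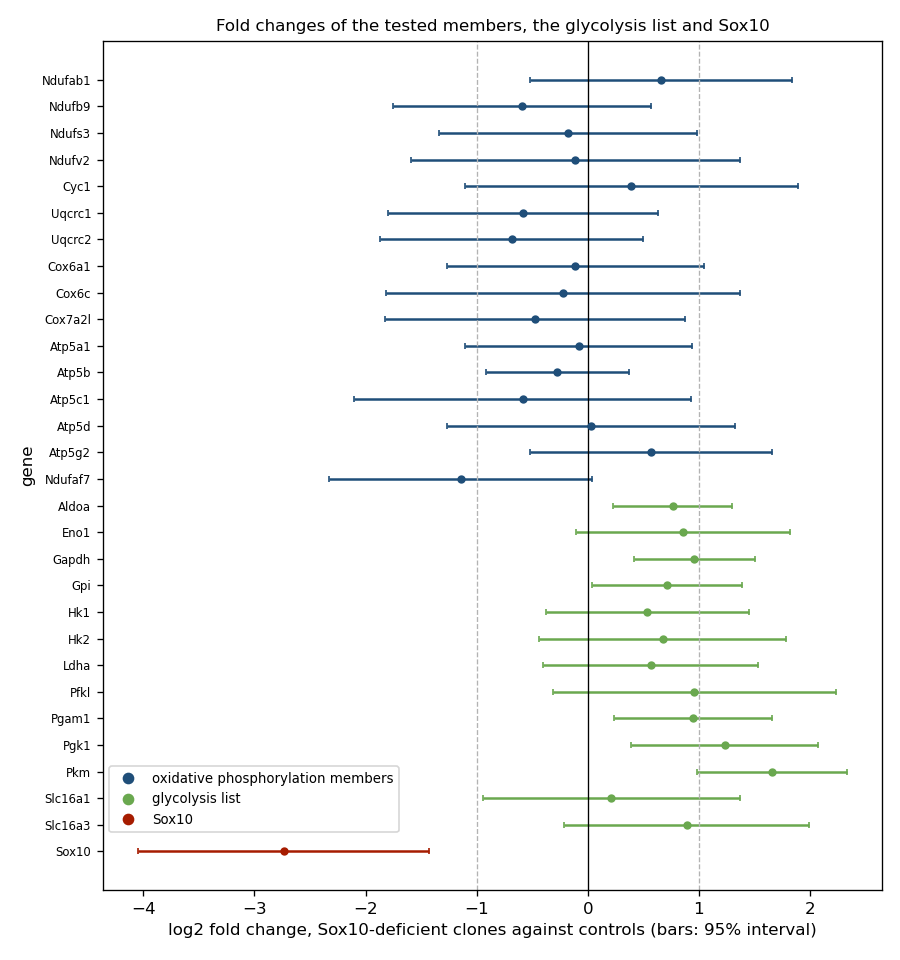
Log2 fold change of Sox10-deficient clones against controls (horizontal axis) with its 95% interval for each of the 16 tested members, the 13 tested glycolysis genes and Sox10. All members' intervals cross 0, Atp5b has the narrowest (-0.92 to 0.37), and the 13 glycolysis genes all lie right of 0, with 6 intervals that do not cross it.

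Complex I takes electrons from NADH through a hydrophilic arm of iron-sulfur proteins. The core subunit Ndufs3 had control counts of 12 and 19, with 6 counts in A and 23 in B. The controls, at 188 ± 6.22 CPM, lay between the clones, at 165 ± 135 CPM, and the log2 fold change was -0.18 (SE 0.55, adjusted p = 0.951 in edgeR). Ndufv2, which carries an iron-sulfur centre of the NADH-oxidizing module, had 8 and 9 counts in controls and 6 and 11 in clones, with a log2 fold change of -0.11 (SE 0.70). The other core subunits had 0 to 11 counts per library and were not tested. Summed, the 7 core genes held 0.0509% and 0.0538% of counts in controls and 0.0541% and 0.0606% in clones, a ratio of 1.10 whose neighbouring values differed by far less than the counting error.

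Among the accessory subunits, Ndufab1, the mitochondrial acyl carrier protein, had 4 and 19 counts in controls and 11 and 26 in clones. Its levels were 124 ± 84.6 CPM and 211 ± 119 CPM, with a log2 fold change of 0.66 (SE 0.56, adjusted p = 0.677 in edgeR), and the groups overlapped. Ndufb9, a subunit of the membrane arm, had 15 and 14 counts in controls and 10 and 11 in clones. The groups did not overlap, at 188 ± 74.5 and 120 ± 6.44 CPM, but the log2 fold change of -0.59 (SE 0.55) had an adjusted p of 0.726 in edgeR. The remaining accessory genes had at most 14 counts in a library.

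Ndufa7, an accessory subunit, had no count in either control, 6 in A and 4 in B. It was named after its values were seen, as the member with the smallest p once the filter on low counts was dropped (adjusted p = 0.292 in edgeR). In control 1, whose total was lowest, a count of 0 allows a level of up to 48.2 CPM, which is above the 45.4 CPM of clone B, so no fold change is given. Among the accessory genes that were not tested, Ndufa1 had 6 and 7 counts in controls and 14 and 9 in clones, and Ndufa11 had 2 and 8 against 8 and 12. Ndufc2 was placed the other way, with 7 and 11 counts in controls and 4 and 5 in clones.

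Complex II, succinate dehydrogenase, is encoded wholly in the nucleus and links the chain to the citric acid cycle. Its flavoprotein Sdha had 5 and 7 counts in controls and 8 and 9 in clones. The iron-sulfur subunit Sdhb had 4 and 5 counts in controls and 5 and 4 in clones. The membrane anchors Sdhc and Sdhd had 1 and 2 against 3 and 3 counts, and 5 and 8 against 1 and 7. None was deep enough to be tested. The sums of the complex, 241 and 213 CPM in controls and 197 and 261 CPM in clones, put both controls between the clones.

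Complex III passes electrons from ubiquinol to cytochrome c. Cyc1, its cytochrome c1 subunit, had 2 and 14 counts in controls and 12 and 9 in clones, with a log2 fold change of 0.39 (SE 0.71, adjusted p = 0.899 in edgeR). Control 1 was the lowest library and the others lay within 102 to 139 CPM. The core protein Uqcrc1 had 6 and 24 counts in controls and 9 and 11 in clones. Its control levels spanned 96.4 to 232 CPM around both clones, and the log2 fold change of -0.59 (SE 0.58) had an adjusted p of 0.749. Uqcrc2, the second core protein, had 9 and 19 counts in controls and 9 in each clone. After scaling by depth the groups did not overlap, at 164 ± 27.8 and 103 ± 1.42 CPM, with a log2 fold change of -0.69 (SE 0.56, adjusted p = 0.657 in edgeR). The Rieske iron-sulfur protein gene Uqcrfs1 had 0 and 4 counts in controls and 5 and 3 in clones, and the others of the complex had at most 8 per library.

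Cytochrome c, the mobile carrier encoded by Cycs, had 0 and 1 counts in controls and 0 and 2 in clones. These values are at or under the floor of 3 counts, so no statement on its level can be made from these counts.

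Complex IV, cytochrome c oxidase, has nuclear subunits that exist in tissue-specific forms. Cox6a1, the widely expressed form of its subunit, had 12 and 13 counts in controls and 15 and 10 in clones. The log2 fold change was -0.11 (SE 0.55, adjusted p = 0.971 in edgeR), and both groups spanned a like range, 126 to 193 CPM and 113 to 173 CPM. Cox6c had 5 and 12 counts in controls and 11 and 4 in clones, with a log2 fold change of -0.22 (SE 0.76). Cox7a2l, known for its part in joining complexes III and IV into supercomplexes, had 7 and 16 counts in controls and 12 and 5 in clones, with a log2 fold change of -0.48 (SE 0.64, adjusted p = 0.833). In both Cox6c and Cox7a2l clone B was the lowest library and clone A lay within or above the range of the controls.

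The paired forms were read as shares of their family. Cox6a2, the form of heart and muscle, had no count beside the 50 of Cox6a1, which allows a Cox6a2 share of up to 21.8% to 30.8% of the family in a single library (exact binomial interval). Cox4i1 had 3 and 4 counts in controls and 4 and 8 in clones, and Cox4i2, its form of lung and low oxygen, had 1 count in clone B. Cox8a had 2 counts in each control and 4 in each clone, Cox8b had 2 and 1 against 0 and 2, and Cox8c was at 0. Ndufa4 had 6 and 8 counts in controls and 2 and 7 in clones. Its relative Ndufa4l2, known to be induced by low oxygen, had 5 and 1 counts in controls and 0 and 2 in clones, a share of 45.5%, 11.1%, 0% and 22.2% of the pair. The intervals of these shares overlapped in all 4 libraries (16.7 to 76.6%, 0.281 to 48.2%, 0 to 84.2% and 2.81 to 60%). Cox7a2 and Cox6b2 were at 0 in all count files, and Cox6b1 and Cox7a1 were not analysed here.

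Ndufa4l2 lies opposite the coding gene Shmt2 in the RefSeq annotation, and its counts were high against the mean level that the authors list for it in a separate table (2). The part of the other strand in the count of this gene was not tested. Of the members that could be checked, 15 overlap a protein-coding gene on the other strand, among the tested ones Ndufs3 (Kbtbd4), Uqcrc2 (Pdzd9) and Atp5d (Cbarp). Some members were not checked, among them Ndufb9, Cox6a1, Cox6c, Cyc1 and Atp5h. Left without these 15 but with those not checked, the members held 0.402% and 0.452% of counts in controls. In clones they held 0.435% and 0.414%, with both clones between the controls.

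**Figure D4:**
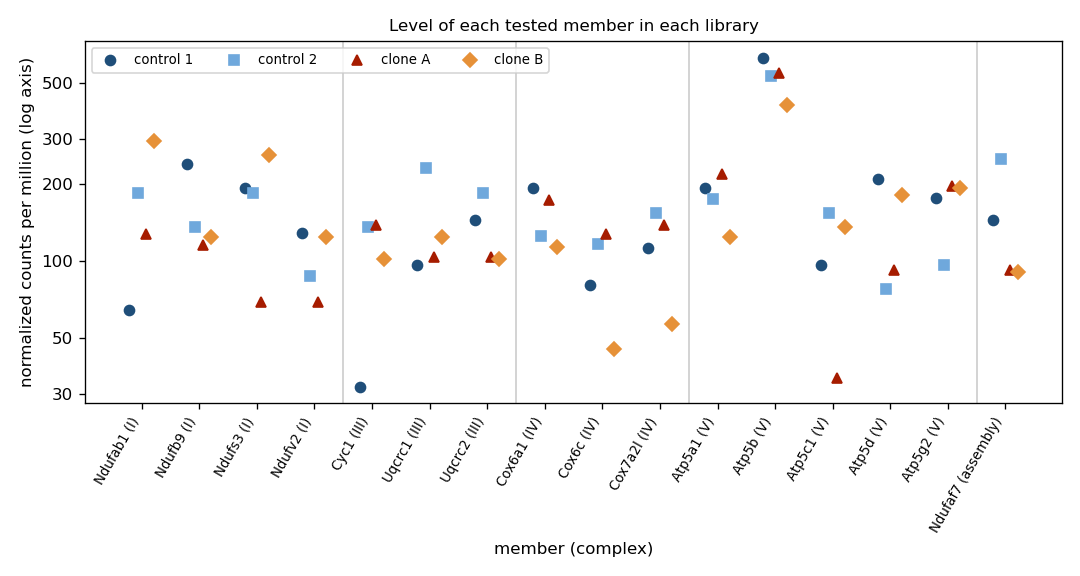
Normalized CPM on a log axis for the 16 tested members, grouped by complex, with 1 marker per library. Both clones lie below both controls for Ndufb9, Uqcrc2 and Ndufaf7 and above them for Atp5g2, and the 4 libraries are mixed for the other 12.

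Complex V joins a soluble F1 head, where ATP is made, to a rotating c-ring and a peripheral stalk. Atp5b, the catalytic beta subunit, gave the most precise value of all members, with 39 and 55 counts in controls and 47 and 36 in clones. Its levels were 579 ± 66.4 CPM and 476 ± 95.6 CPM. Clone A lay between the controls, and the log2 fold change of -0.27 (SE 0.31, 95% interval -0.92 to 0.37) had an adjusted p of 0.783 in edgeR. A change of 2-fold or more in either direction lies outside that interval. The alpha subunit gene Atp5a1 had 12 and 18 counts in controls and 19 and 11 in clones, with a log2 fold change of -0.08 (SE 0.49, interval -1.11 to 0.94).

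The gamma and delta subunits of the rotor, Atp5c1 and Atp5d, had 6 and 16 against 3 and 12 counts and 13 and 8 against 8 and 16. Their log2 fold changes were -0.58 (SE 0.72) and 0.03 (SE 0.62), and for both the groups overlapped. Atp5e, the epsilon subunit, was named after its values were seen: it had 2 and 12 counts in controls and 1 and 0 in clones, with an unadjusted p under 0.05 and an adjusted p of 0.305 in edgeR when the filter was dropped. Control 2 alone carried that difference, since in control 1 the count was under the floor. Over the 5 F1 genes the sum was 0.118% and 0.105% in controls and 0.0898% and 0.0841% in clones, a ratio of 0.781 without overlap. The Wilson intervals of control 2 (0.0869 to 0.126%) and clone A (0.0720 to 0.112%) overlapped.

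Of the other parts of the synthase, the sums of the peripheral stalk and of the remaining membrane genes were placed the other way. Over the 3 genes of the c-ring the sum was 0.0230% and 0.0135% in controls and 0.0288% and 0.0202% in clones, so the groups overlapped. Atp5g2, one of 3 genes for the same c subunit, had 11 and 10 counts in controls and 17 in each clone. Its groups did not overlap, at 137 ± 56.5 and 195 ± 2.69 CPM, with a log2 fold change of 0.57 (SE 0.52, interval -0.52 to 1.66, adjusted p = 0.717 in edgeR). Atp5g1 had 3 and 2 counts in controls and 7 and 1 in clones, and Atp5g3 0 and 2 against 1 and 0. Atp5g2 held 78.6% and 71.4% of the c-subunit counts of control libraries and 68% and 94.4% of those of A and B, with intervals that overlapped (49.2 to 95.3%, 41.9 to 91.6%, 46.5 to 85.1% and 72.7 to 99.9%).

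The peripheral stalk genes Atp5h, Atp5j and Atp5o, which hold the head still against the rotor, summed to 8 and 14 counts in controls and 28 and 19 in clones. As shares these were 0.0131% and 0.0135% against 0.0323% and 0.0213%, a ratio of 2.02 without overlap. Atp5h contributed 4 and 8 against 17 and 9 counts, Atp5j 1 and 1 against 6 and 4, and Atp5o 3 and 5 against 5 and 6, while Atp5f1 was at 0. The intervals of control 2 (0.0080 to 0.0226%) and clone B (0.0136 to 0.0333%) overlapped, none of the genes was deep enough to be tested, and Atp5j overlaps Gabpa on the other strand, whose part in its counts was not tested. The other genes of the membrane part, Atp5i, Atp5j2 and Atp5l, summed to 5 and 10 counts in controls and 10 and 22 in clones. Their shares had a ratio of 2.03 without overlap. Control 2 and clone A had 10 counts each, and their intervals (0.0052 to 0.0177% and 0.0063 to 0.0212%) overlapped. Atp5j2 contributed 4 and 2 against 7 and 10 counts, and Atp5l 1 and 8 against 2 and 5. Atp5i, named after its values were seen, had 0 counts in both controls, 1 in A and 7 in B, with an unadjusted p under 0.05 and an adjusted p of 0.509 in edgeR when the filter was dropped. The grouping of subunits by place in the enzyme was described after earlier results of these data were known, and these sums are descriptions.

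Ndufaf7, an assembly factor of complex I, had the largest fold change among the tested members. It had 9 and 26 counts in controls and 8 in each clone. Its level was 198 ± 75.8 CPM in controls and 91.6 ± 1.27 CPM in clones, a log2 fold change of -1.14 (SE 0.56, interval -2.32 to 0.04, adjusted p = 0.363 in edgeR). The distance between the controls was larger than that between control 1 and the clones. The mean count of Ndufaf7 was 3.48% of the authors' mean, the highest share among the tested members. For the median gene described above this share was 0.384%, and the reason for the difference was not tested. The other 7 genes of this group had at most 5 counts in a library.

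The rest of energy metabolism was read from lists in the same fit, and the glycolysis list was the one placed most unlike the respiratory chain, with no test of a difference between lists. Of 21 glycolysis and lactate transport genes, 13 were tested and all 13 had log2 fold changes above 0, with a median of 0.86. By adjusted p, 2 rose: Pkm, which makes pyruvate in the last step, with 27 counts in each control and 106 and 79 in clones (log2 fold change 1.65, SE 0.32, adjusted p = 0.00547 in edgeR), and Gapdh with 67 and 139 against 234 and 180 counts (0.96, SE 0.26, adjusted p = 0.0477). In all, 6 passed at the unadjusted threshold (Pkm, Gapdh, Pgk1, Aldoa, Pgam1 and Gpi), and 12 had groups without overlap. Over all 2438 tested genes, 1.19% were called higher, 6.52% were higher at the unadjusted threshold and 21.6% were higher without overlap. With no filter, and in DESeq2, 15 of 18 glycolysis genes were above 0. Without control 2, clone A or clone B it was 13 of 14. The call of Gapdh was lost with DESeq2's size factors (adjusted p = 0.0654), in DESeq2 (0.0966), with a replicate block (0.114) and without control 1 (0.226), control 2 (0.377) or clone A (0.49). That of Pkm was lost without clone A (adjusted p = 0.0604 in edgeR) or without control 2 (0.377).

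Set against each other, the glycolysis list had 0.902 and 0.849 counts per member count of oxidative phosphorylation in control libraries, and 1.81 and 1.43 in A and B. The groups were apart in this ratio, while the shares of the members were interleaved. Whether the genes outside the 2 that were called changed was not shown by these tests. Unlike the members, the glycolysis genes were not looked up for genes on the other strand.

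**Figure D5:**
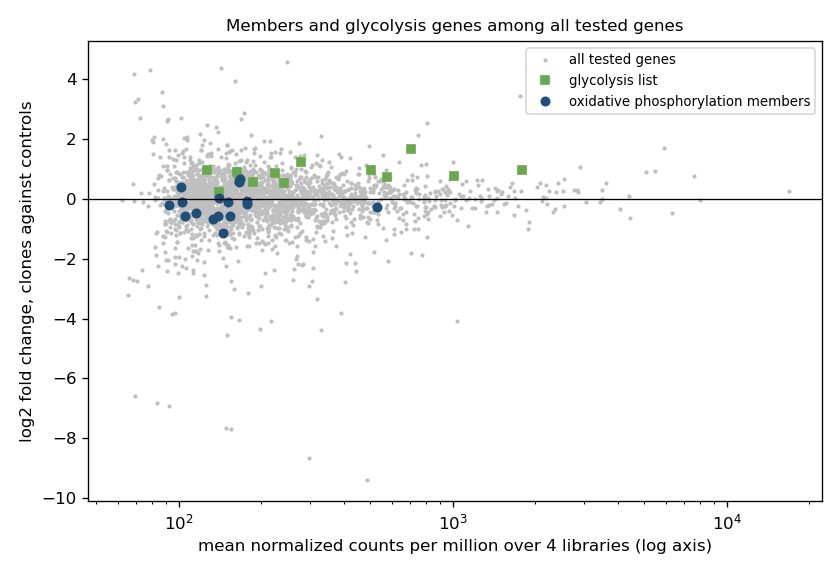
Log2 fold change (vertical axis) against mean CPM over the 4 libraries (log horizontal axis) for all 2438 tested genes, with the 16 members and the 13 glycolysis genes marked. The members lie within the cloud, 15 of them within 1 log2 unit of 0, and the glycolysis genes lie above 0.

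The pyruvate dehydrogenase and citric acid cycle genes supply the chain with NADH and succinate. They summed to 0.276% and 0.258% of counts in controls and 0.218% and 0.226% in clones, a ratio of 0.831 without overlap. The Wilson intervals of control 2 (0.229 to 0.290%) and clone B (0.196 to 0.259%) overlapped. Of 10 tested, none was called by adjusted or unadjusted p in edgeR, and their median was -0.33. The mitochondrial ribosome, which translates the subunits encoded in the organelle, had a ratio of 0.897 without overlap. Here the intervals of control 1 (0.248 to 0.333%) and clone A (0.238 to 0.307%) overlapped. Of its 4 tested genes, 0 were called by adjusted p and 1, Mrpl42, was lower at the unadjusted threshold. Genes for import, channels and carriers had a ratio of 0.955 (0 of 7 called), and assembly factors outside the naming rule a ratio of 1.02 (0 of 4 called).

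The regulators of mitochondrial gene expression were at a ratio of 1.00, and none of 6 tested was called. Gabpa had a log2 fold change of -0.06 (SE 0.49) and Yy1 of -0.91 (SE 0.66), with 7 and 17 counts against 7 and 6. Oxidative defence genes had a ratio of 1.41 without overlap, with none of 4 called by adjusted p and Nqo1 higher at the unadjusted threshold. For this list the Wilson intervals of control 1 (0.116 to 0.176%) and clone B (0.128 to 0.179%) overlapped. The cytosolic ribosome, a large set with no tie to the respiratory chain, had a ratio of 1.11 without overlap, with 0 of 26 genes called by adjusted or unadjusted p, so that a group sum without overlap also occurred there. The genes encoded by mitochondrial DNA had no counts in the count files, and the partner subunits of complexes I, III, IV and V could not be set beside the nuclear ones per library.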

How the data were processed

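RNA-Seq libraries of 2 control and 2 Sox10-deficient OLN93 samples were used, grouped by the labels. Libraries were made from total RNA with a stranded mRNA kit. The authors deposited raw counts per gene symbol, which per the paper's methods and the submitters' processing notes came from STAR 2.5.1 and HTSeq on the rat genome rn5. The strand option of the counting is not given in the sources used here. A second deposited table holds the DESeq2 comparison that the authors made for each Ensembl gene. Its mean normalized count, rounded to whole numbers, was treated as a score and printed only as the authors' mean, and its fold changes and p-values were not used.

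The quasi-likelihood test of edgeR 4.0.16 under R 4.3.3 (genes kept by filterByExpr, TMM factors, glmQLFit and glmQLFTest on condition alone) was applied to the counts over 2438 genes, with Benjamini-Hochberg adjustment and a threshold of 0.05. Intervals are at 95% from the standard error of the quasi-likelihood fit. That fit draws the spread of each gene partly from other genes (17.5 degrees of freedom for Atp5b), so p-values and intervals rest on more than the libraries of that gene. Summed counts were taken over all members, without a filter. Alternatives were DESeq2 1.42.0, other scalings and filters, a replicate block and leaving out each library. A count of 0 was read with a floor of 3 counts, 29.0 to 48.2 CPM per library. The 2 controls, and likewise the 2 clones, differed by more than sampling noise (chi-square per degree of freedom 2.18 and 2.2).

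The members and lists were chosen with earlier results of these data known. Named genes were Sox10, members past an unadjusted p of 0.05 in the filtered edgeR fit (none), the 3 tested members of each complex with the highest counts, the paralog families, Sdha to Sdhd, Cyc1, Cycs, Uqcrfs1, Atp5a1 and Atp5b, and called genes of other lists; further names were added after their values were seen. Promoter sequences and overlaps came from RefSeq, GRCr8, matched by symbol or synonym, and were not used for coordinates of the counts. Values of some single genes are not reported here.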

Additional observations from a re-analysis of the deposited data

Results flagged for a closer look

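The following values lay outside the comparisons above because the count files hold no counts for these genes in any library or do not list them. They are the authors' mean normalized counts over all libraries, rounded to whole numbers, and are above 0. Members listed at 0 in the count files were Cox7a2, with an authors' mean of 515, and Ndufaf6, with 143. Members that occurred in the authors' table but not in the count files were Ndufa13 (1491), Ndufc1 (965), Ndufa3 (614), Cox7a2l2 (374), Atp5hl1 (183) and Ndufv3-ps1 (82).

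The table also lists 11 genes of mitochondrial DNA. For complex I the authors' means were 128842 for Mt-nd2, 224342 for Mt-nd4, 84762 for Mt-nd4l, 183675 for Mt-nd5 and 33711 for Mt-nd6. For complex III the value was 222345 for Mt-cyb. For complex IV they were 368601 for Mt-co1, 135428 for Mt-co2 and 111958 for Mt-co3, and for complex V 156826 for Mt-atp6 and 104291 for Mt-atp8. Together these made up 9.08% of the sum of the authors' means, and the nuclear members 1.01%. The means pool both groups, so they hold no comparison. The difference from the counts was not tested for a cause.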

How the results depend on the processing

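No member had an adjusted p of 0.05 or less under any of 10 settings, and the log2 ratio of summed shares (-0.014) moved by less than 1 SD between replicates (0.0385), to between -0.044 and 0.019. At the unadjusted threshold, 1 member was lower and 2 were higher with no filter, 1 was lower without control 1, and 1 was higher in DESeq2. The median of tested members was 0.18 in DESeq2 and 0.22 with no filter (both 81 members), -0.063 with at least 10 counts in every library (5 members), and -0.19 to 0.031 when single libraries were left out. Over the same 16 members it was -0.18 to -0.45 in the fits that tested them all. With a replicate block it was -0.26, and calls over all genes went from 61 lower and 29 higher to 28 and 14. The replicate numbers were not treated as a pairing, because deviations of same-numbered libraries correlated at 0.120 in 2 pairs only. Of 149 member values under alternatives, 133 kept their direction and 16 did not. Atp5d was -0.0048 in DESeq2. Ndufa7 had no adjusted p in DESeq2 and could not be called there. Ranges with single libraries left out were Atp5a1 -0.53 to 0.27, Atp5c1 -1.84 to 0.083, Atp5d -0.62 to 0.79, Cox6a1 -0.45 to 0.16, Cox6c -1.11 to 0.34, Cox7a2l -1.23 to 0.032, Cyc1 -0.19 to 1.83, Ndufab1 -0.039 to 1.67, Ndufs3 -1.41 to 0.48, Ndufv2 -0.59 to 0.26 and Uqcrc1 -1.04 to 0.22. Glycolysis genes called higher were 1 with DESeq2 size factors, 1 in DESeq2, 1 with the replicate block and 0 to 2 with a library left out. Sox10 was -2.75 in DESeq2 (adjusted p = 0.9998) and -2.82 with the replicate block (adjusted p = 0.125), and -1.75 to -8.51 with a library left out, the last against clone A alone, which is at 0. Its call was lost without control 2 (-2.49, adjusted p = 0.447) and without clone A. With counts this low, 73 members could not be tested. The causes were not tested.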
